A study of Mus musculus with 8 samples.

Results

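To determine which genes respond to the loss of Aiolos alone, RNA of Aiolos-/- pre-BII cells was set against that of wild type pre-BII cells on MOE430A arrays, 2 arrays each of the 8 in the series. The probe sets were chosen by intensity. Of 22626 probe sets that are not array controls, the 9513 whose mean was at least 100 in either genotype were kept (42.0%), and with 1 probe set read for each gene they cover 6081 of 12393 genes. Of the 9513 probe sets, 8887 reached 100 in both genotypes, 340 only in Aiolos-/- cells and 286 only in wild type cells. Zdhhc6 (a mean of 100.01 in Aiolos-/- and 99.1 in wild type cells) lay just inside the limit, and Arhgef3 (69.3 in Aiolos-/- and 99.99 in wild type cells) just outside it.

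The mutant mice lacked Aiolos and the controls were wild type, and both were labelled as 7 weeks old and of the Bl6 strain. The other 4 arrays came from mice lacking Aiolos together with OBF-1 and from mice lacking OBF-1 alone, with the same age and strain label. By the study's methods, B220+ CD25+ cells were purified from bone marrow pooled over 8 mice, and each genotype had 2 independent pools. The deposited labels instead describe bone marrow of 1 animal a sample and name neither purification nor pooling. The methods are followed here, and the p-values measure only the spread between these arrays. Arrays of all Aiolos-deficient mice were washed on fluidics station 1 and those of wild type and OBF-1-/- mice on station 2, so genotype and station cannot be told apart. No probe set was matched to Ikzf3, the gene encoding Aiolos, and its RNA was not analysed here.

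Pre-BII cells have assembled an immunoglobulin heavy chain, which pairs with the surrogate light chain (λ5, encoded by Igll1, and VpreB) in the pre-B cell receptor. They then stop dividing, silence the surrogate light chain genes and rearrange their light chain genes. Aiolos, from the Ikaros family of zinc finger proteins, binds DNA and acts both as an activator and as a repressor, and its expression increases at the pre-B cell stage.

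The arrays were alike in overall signal. Over the 8 arrays the median intensity was 66.8 to 69.4, 40.4 to 41.1% of probe sets reached 100, and the ratio of 3' to 5' actin control probe sets was 1.71 to 2.14. Replicate arrays correlated with r = 0.9965 in Aiolos-/- and 0.9965 in wild type cells, against 0.9922 to 0.9946 between Aiolos-/- and wild type arrays. RNAs of B-lineage cells were strong in both genotypes, such as Cd79a (7079 and 7126 in Aiolos-/- and 7927 and 7944 in wild type cells) and Ighm (9485 and 9806 against 11283 and 11155). The CD25 gene Il2ra, whose protein was used for purification by the study's methods, was read in both genotypes (472 and 485 against 445 and 396). RNAs of granulocytes were strong in both as well, such as S100a9 (6165 and 6189 in Aiolos-/- and 6038 and 5943 in wild type cells). The summed intensity of the 21 measured granulocyte and monocyte markers was 31142 and 31882 in Aiolos-/- and 27614 and 27906 in wild type cells. In such bulk samples, fewer cells of a type and less RNA in each cell cannot be told apart.

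Loss of Aiolos was accompanied by changes in a small part of the measured RNAs. In Aiolos-/- cells 107 probe sets were higher (1.12% of the 9513) and 183 were lower (1.92%) than in wild type cells, counting an adjusted p (Benjamini-Hochberg) under 0.05 in a limma fit to all 8 arrays. Together they were 3.05% of the members. Of the 340 probe sets that reached 100 only in Aiolos-/- cells 34 were called, and of the 286 that did so only in wild type cells 34. Of the 9222 probe sets with a mean of at least 100 over both genotypes together, 1.01% were higher and 1.87% lower. With 1 probe set a gene, 79 genes rose (1.3% of 6081) and 83 fell (1.36%), 2.66% in all. Most changes were small: the median size was 0.60 on the log2 scale for rises and 0.60 for falls, and 16 probe sets rose and 16 fell at least 2-fold. The groups did not overlap in any of the 290 called probe sets, which held for 57.7% of all 9513. Genes of the surrogate light chain had the largest rises, with Igll1 (read by a probe set that can bind several transcripts) at 3158 and 2819.9 in Aiolos-/- and 327 and 281 in wild type cells (log2 fold change 3.30, standard error 0.11, adjusted p = 2.57e-08). Vpreb1 was 1435 and 1375 against 195 and 191 (log2 fold change 2.87, standard error 0.10, adjusted p = 2.57e-08). The split between rises and falls moved with the scaling, to 128 higher and 140 lower after renewed quantile normalization and to 82 and 246 after centring on array medians. The median log2 fold change of all 22626 probe sets was 0.0298, 0.0078 and -0.0126 under these scalings. Fewer probe sets passed without Aiolos-/- replicate 1 (31 higher, 19 lower), Aiolos-/- replicate 2 (48 and 83), wild type replicate 1 (26 and 16) or wild type replicate 2 (36 and 87). Without moderated variances 4 passed, those of Igll1, Vpreb1, Cd2 and the probe set shared by the Vpreb genes.

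Beyond the surrogate light chain, several of the largest rises in Aiolos-/- cells fell on genes for receptors and membrane proteins. Grouping by protein type here and below only orders the named genes, and no excess of a type was tested. Ramp1, an accessory subunit of the calcitonin receptor-like receptor, gave 484 and 359.7 in Aiolos-/- cells and 124 and 139.9 in wild type cells (log2 fold change 1.66, standard error 0.14, adjusted p = 0.000199). Tspan31, a tetraspanin, gave 202 and 155 against 69.7 and 77.4 (log2 fold change 1.27, standard error 0.13, adjusted p = 0.000917). Both Aiolos-/- arrays of these genes stood about 2-fold or more above both wild type arrays, and the other Tspan31 probe set rose too, by 0.78 on the log2 scale (adjusted p = 0.00332). Tnfrsf19, of the tumour necrosis factor receptor superfamily, was 771 and 819.7 in Aiolos-/- and 452 and 362 in wild type cells (log2 fold change 0.97, standard error 0.13, adjusted p = 0.00423), and its other probe set rose by 0.79 (adjusted p = 0.00229). Sit1, a transmembrane adaptor of lymphocytes that binds the phosphatase SHP2, was 292 and 249.9 against 149 and 133 (log2 fold change 0.94, standard error 0.12, adjusted p = 0.00332). These 4 genes stayed called with any 1 of the 4 compared arrays left out.

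Wnt-related receptors were among the rises as well. Fzd9, a Wnt receptor, was 226 and 179 in Aiolos-/- and 92.5 and 106 in wild type cells (log2 fold change 1.02, standard error 0.14, adjusted p = 0.00617). Lgr5, a receptor for the R-spondins that strengthen Wnt signalling, was 398 and 379 against 282 and 212 (log2 fold change 0.67, standard error 0.13, adjusted p = 0.0286). Neither gene had overlapping arrays, which was so for every called probe set. Spn, which encodes the surface mucin CD43 of early B-lineage cells, rose less, with 107 and 107 in Aiolos-/- and 74.6 and 75.1 in wild type cells (log2 fold change 0.51, standard error 0.10, adjusted p = 0.0287). When 1 array was left out, calls ended without Aiolos-/- replicate 1 for Fzd9, Lgr5 and Spn (adjusted p = 0.0719 to 0.18) and without Aiolos-/- replicate 2 for Lgr5 and Spn (adjusted p = 0.0922 to 0.112). Calls also ended without wild type replicate 1 for Fzd9 and Spn (adjusted p = 0.0913 to 0.176) and without wild type replicate 2 for Lgr5 and Spn (adjusted p = 0.0939 to 0.118).

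**Figure D1:**
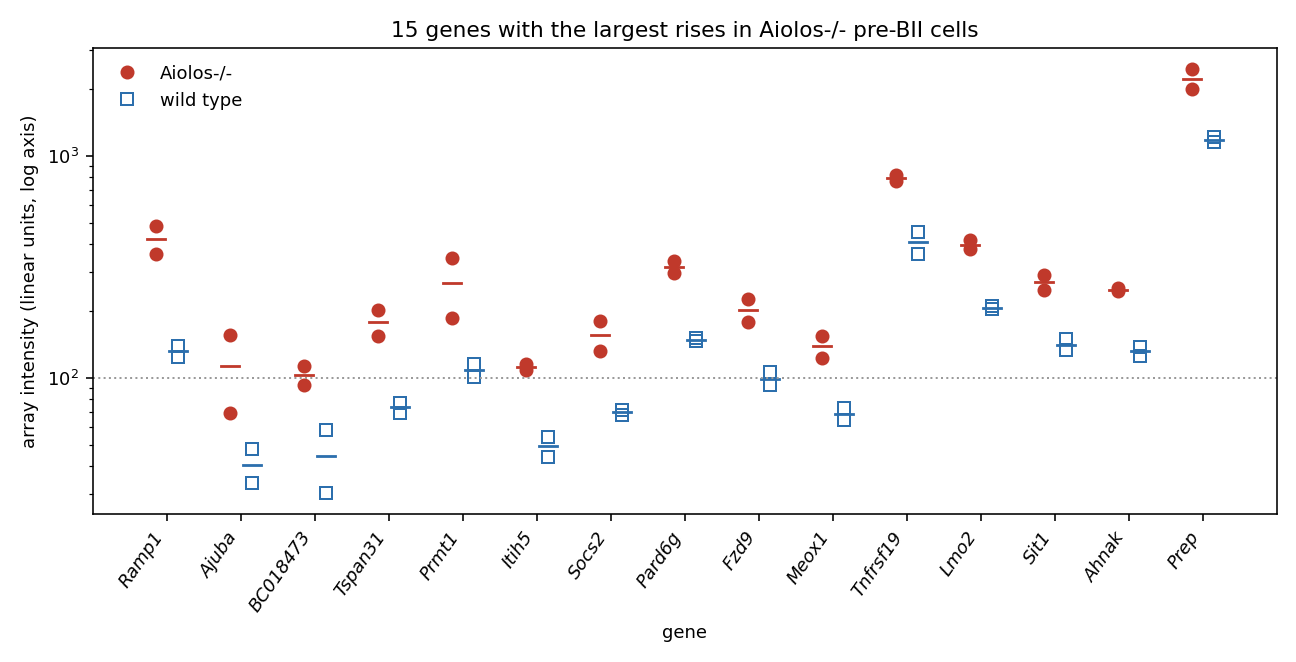
Array intensity (linear units on a log axis) of the 15 genes with the largest rises, surrogate light chain left out, with the 2 Aiolos-/- arrays of each gene as red circles, the 2 wild type arrays as blue squares, short lines for their means and a dotted line at an intensity of 100. The Aiolos-/- circles lie above the wild type squares in every gene, as the rule for picking them required. The 2 Aiolos-/- arrays are farthest apart in Ajuba (157 and 69.3) and Prmt1 (186 and 348).

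Other rises fell on genes of the cell cortex. Pard6g, a cell polarity protein, gave 338 and 297 in Aiolos-/- and 151 and 147 in wild type cells (log2 fold change 1.09, standard error 0.11, adjusted p = 0.000876). Ahnak, a very large scaffold at the plasma membrane, gave 253 and 247 against 125 and 138 (log2 fold change 0.93, standard error 0.10, adjusted p = 0.00102). Replicates of both genes were close in both genotypes. Ajuba, a LIM domain scaffold of cell junctions, gave 157 and 69.3 in Aiolos-/- and 33.6 and 47.7 in wild type cells (log2 fold change 1.38, standard error 0.28, adjusted p = 0.0319), so its Aiolos-/- arrays were more than 2-fold apart. Among actin regulators, Gsn (gelsolin, which severs actin filaments) was 510.2 and 434 against 287 and 290.4 (log2 fold change 0.71, standard error 0.11, adjusted p = 0.0108). Of the other Gsn probe sets 1 rose (0.66, adjusted p = 0.00715), and the others, at 0.36 and 0.19, did not pass (adjusted p = 0.112 and 0.273). Pfn2, an actin-binding profilin, was 205 and 174 in Aiolos-/- and 108 and 102 in wild type cells (log2 fold change 0.85, standard error 0.11, adjusted p = 0.00332). Pfn2 was picked after its values were seen. Of the 28 measured genes of the actin, myosin and focal adhesion list that reached 100, 3 rose (Ahnak, Gsn and the troponin subunit Tnni2) and 1 fell, the filament-capping protein Capg (14.3% called, against 2.66% of the 6081 genes). Tnni2 was 143 and 138 in Aiolos-/- and 95.2 and 109 in wild type cells (log2 fold change 0.46, standard error 0.10, adjusted p = 0.0418), and Capg was 177 and 153 against 258 and 263 (log2 fold change -0.66, standard error 0.11, adjusted p = 0.0152). Tnni2 was read by a probe set that can bind several transcripts. The median log2 fold change of the 28 genes was 0.02, against -0.02 over the 6081 genes. Leaving out single arrays ended calls without Aiolos-/- replicate 1 for Ajuba, Gsn and Tnni2 (adjusted p = 0.113 to 0.227), without Aiolos-/- replicate 2 for Tnni2 and Capg (adjusted p = 0.0927 to 0.125) and without wild type replicate 1 for Ajuba, Gsn, Tnni2 and Capg (adjusted p = 0.106 to 0.275). More calls ended without wild type replicate 2 for Ajuba, Gsn, Tnni2 and Capg (adjusted p = 0.0535 to 0.0686) and without either OBF-1-/- replicate for Tnni2 (adjusted p = 0.0576).

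The remaining large rises concerned signalling, transcription and enzymes. Socs2, an inhibitor of cytokine receptors that signal through STAT proteins, was 181 and 132 in Aiolos-/- and 68.2 and 72 in wild type cells (log2 fold change 1.14, standard error 0.18, adjusted p = 0.0117). Lmo2, an adaptor of haematopoietic transcription factor complexes, was 379.7 and 417 against 205 and 209.8 (log2 fold change 0.94, standard error 0.16, adjusted p = 0.0183). The homeobox gene Meox1 was 154 and 123 against 64.8 and 73.2 (log2 fold change 1.00, standard error 0.12, adjusted p = 0.00332). In these genes every Aiolos-/- array was above every wild type array, as in every probe set called higher. Prmt1, an arginine methyltransferase that acts on histone H4, was 186 and 348 in Aiolos-/- and 101 and 116 in wild type cells (log2 fold change 1.23, standard error 0.24, adjusted p = 0.0287). Prep, a prolyl peptidase, was the brightest of the 15, at 2449 and 2002 against 1214 and 1154 (log2 fold change 0.90, standard error 0.13, adjusted p = 0.00762). Itih5, a secreted protein of the inter-alpha-trypsin inhibitor family, was 116 and 109 against 54.5 and 44.2 (log2 fold change 1.20, standard error 0.12, adjusted p = 0.000917). The transcript BC018473 was 113 and 93.2 in Aiolos-/- and 58.4 and 30.4 in wild type cells (log2 fold change 1.29, standard error 0.26, adjusted p = 0.03). Of the 15 largest rises, 7 (Ajuba, BC018473, Tspan31, Itih5, Socs2, Fzd9 and Meox1) had a wild type mean below 100 and were kept through their Aiolos-/- level. The calls that ended with 1 array left out were, without Aiolos-/- replicate 1 for Socs2, Lmo2, Prep and BC018473 (adjusted p = 0.0869 to 0.2) and without Aiolos-/- replicate 2 for Lmo2, Prmt1 and BC018473 (adjusted p = 0.0712 to 0.108). Others ended without wild type replicate 1 for Socs2, Lmo2, Meox1, Prmt1 and Prep (adjusted p = 0.0502 to 0.214) and without wild type replicate 2 for Socs2, Lmo2, Prmt1 and BC018473 (adjusted p = 0.0552 to 0.107).

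Among the falls in Aiolos-/- cells were surface, membrane and trafficking proteins. Cd2, an adhesion molecule that appears on B-lineage cells at about the pre-BII stage, gave 321 and 318 in Aiolos-/- and 658 and 616 in wild type cells (log2 fold change -0.99, standard error 0.09, adjusted p = 0.00026). Cav2, a caveolin, gave 108 and 83.5 against 204 and 217 (log2 fold change -1.15, standard error 0.13, adjusted p = 0.00229). Gga2, an adaptor for sorting at the trans-Golgi network, gave 347 and 356 against 691 and 566 (log2 fold change -0.83, standard error 0.11, adjusted p = 0.00423). These 3 kept their call with any 1 of the 4 arrays left out. Slc1a5, a glutamine transporter, was 986 and 967 in Aiolos-/- and 2083 and 1660.5 in wild type cells (log2 fold change -0.93, standard error 0.12, adjusted p = 0.00467). Ltb, which encodes lymphotoxin beta, was 147 and 138 against 268 and 244 (log2 fold change -0.84, standard error 0.14, adjusted p = 0.0141). H2-Oa, a regulator of peptide loading on MHC class II, was 164 and 173 against 261 and 306 (log2 fold change -0.75, standard error 0.10, adjusted p = 0.00574). Rhob, a small GTPase of endosomes and the cytoskeleton, was 130.0 and 168 in Aiolos-/- and 292 and 214 in wild type cells (log2 fold change -0.76, standard error 0.16, adjusted p = 0.0404), the narrowest gap of the 15 largest falls. H2-Oa was the only 1 of 7 MHC class II genes called (14.3%, against 2.66% of the 6081 genes). The list had a median log2 fold change of -0.14. Single arrays decided some of these calls, which ended without Aiolos-/- replicate 1 for Ltb, H2-Oa and Rhob (adjusted p = 0.0689 to 0.253) and without Aiolos-/- replicate 2 for Ltb (adjusted p = 0.068). They ended too without wild type replicate 1 for Slc1a5, Ltb and Rhob (adjusted p = 0.0548 to 0.276).

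**Figure D2:**
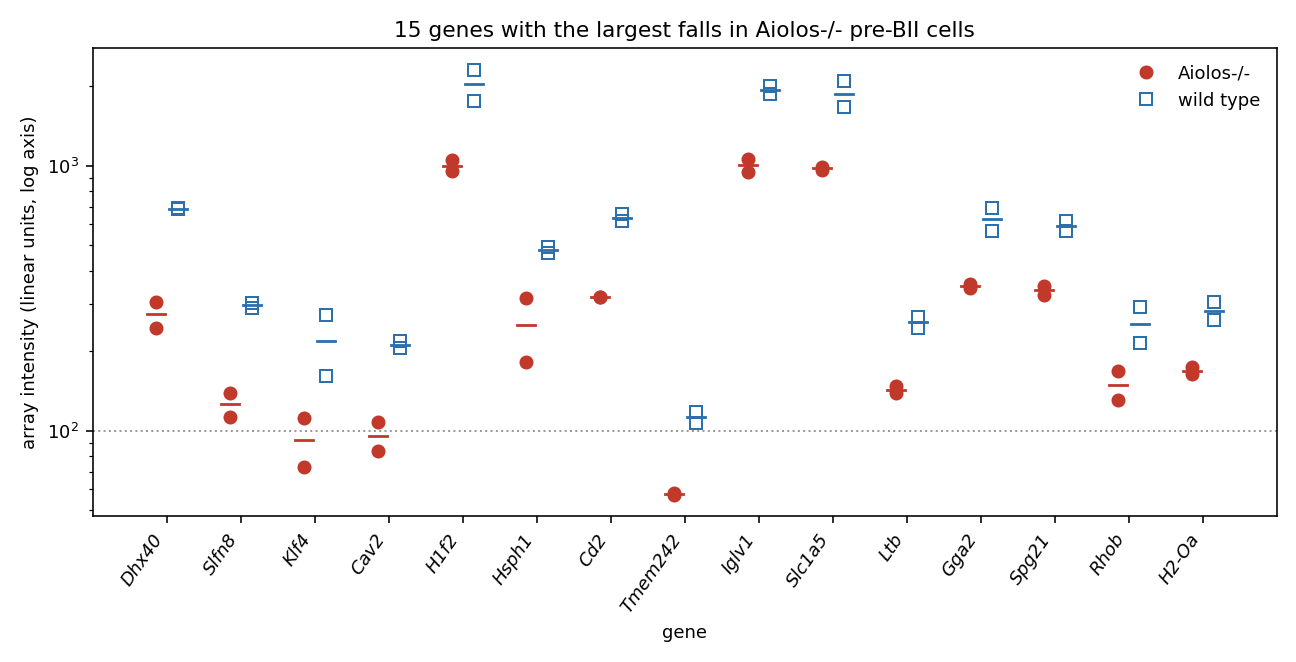
Array intensity (linear units on a log axis) of the 15 genes with the largest falls, with the 2 Aiolos-/- arrays of each gene as red circles, the 2 wild type arrays as blue squares, short lines for their means and a dotted line at an intensity of 100. The Aiolos-/- circles lie below the wild type squares in every gene, as the rule for picking them required. The margin is smallest in Rhob (168 against 214) and wide in Dhx40 (306 against 686).

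Other falls were in genes of nuclear proteins and growth regulators. Dhx40, a helicase of the DEAH-box family, had the largest fall of the 83 genes, with 306 and 245 in Aiolos-/- and 686 and 689 in wild type cells (log2 fold change -1.33, standard error 0.11, adjusted p = 0.000176). Slfn8, of the Schlafen family linked to lymphocyte growth, was 113 and 138 against 303 and 291 (log2 fold change -1.25, standard error 0.16, adjusted p = 0.00423). Slfn2 of the same family fell too, with 466 and 539 against 859 and 823 (log2 fold change -0.75, standard error 0.10, adjusted p = 0.00617), and was picked after its values were seen. The Krüppel-like factor gene Klf4, which restrains B cell proliferation, was 72.6 and 112 in Aiolos-/- and 274 and 160.3 in wild type cells (log2 fold change -1.22, standard error 0.23, adjusted p = 0.0244), while its other probe set did not pass (-0.44, adjusted p = 0.165). Klf2, linked to lymphocyte quiescence and migration, was 1768 and 2010.3 against 3088 and 2586 (log2 fold change -0.58, standard error 0.13, adjusted p = 0.0483). Both Klf2 groups were bright and, as in every called probe set, did not overlap. Ebf1, which specifies the B lineage, was 667 and 821 in Aiolos-/- and 1177 and 1044 in wild type cells (log2 fold change -0.58, standard error 0.12, adjusted p = 0.0297). The other Ebf1 probe sets had log2 fold changes of -0.25 and -0.10 (adjusted p = 0.222 and 0.625). Id3, an inhibitor of E proteins, was 143 and 133 against 216 and 178 (log2 fold change -0.51, standard error 0.11, adjusted p = 0.0413). These 3 were the called members of 23 B-lineage transcription factors (13%, against 2.66% of the 6081 genes), whose median was -0.05. When 1 array was left out, calls ended without Aiolos-/- replicate 1 for Slfn2, Klf4, Klf2, Ebf1 and Id3 (adjusted p = 0.0775 to 0.268), without Aiolos-/- replicate 2 for Klf2 and Id3 (adjusted p = 0.093 to 0.174) and without wild type replicate 1 for Slfn8, Slfn2, Klf4, Klf2, Ebf1 and Id3 (adjusted p = 0.0548 to 0.302). Calls also ended without wild type replicate 2 for Klf2 and Ebf1 (adjusted p = 0.0654 to 0.0685) and without either OBF-1-/- replicate for Klf2 and Id3 (adjusted p = 0.0514 to 0.061).

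Pim1, a kinase induced by cytokine receptors, was 462 and 525 in Aiolos-/- and 782 and 693 in wild type cells (log2 fold change -0.58, standard error 0.12, adjusted p = 0.0319), and its other probe set fell by 0.71 (adjusted p = 0.0252). With Socs2, it was 1 of 2 called genes of the 12 in the IL-7 and IL-2 receptor list (16.7%, against 2.66% of the 6081 genes), in opposite directions. The linker histone gene H1f2 was 953 and 1047 against 2305 and 1752 (log2 fold change -1.01, standard error 0.16, adjusted p = 0.0139), and a dimmer H1f2 probe set was 128 and 125 in Aiolos-/- and 363 and 327 in wild type cells (-1.45, adjusted p = 2.96e-05). Both H1f2 probe sets were thus well below wild type on both arrays. Hsph1, a chaperone of the HSP110 family, was 182 and 317 against 493 and 467 (log2 fold change -0.997, standard error 0.23, adjusted p = 0.0492). It was the only 1 of 12 heat shock chaperone genes called (8.33%, against 2.66% of the 6081 genes). Of the 12 genes 11 were below wild type, as were 3346 of the 6081 genes, with a list median of -0.28. Tmem242, encoding a transmembrane protein, was 58.1 and 57.2 in Aiolos-/- and 118 and 107 in wild type cells (log2 fold change -0.96, standard error 0.10, adjusted p = 0.000876). Tmem242, Cav2 and Klf4 were the 3 of the 15 largest falls with an Aiolos-/- mean below 100, kept through their wild type level. Spg21, encoding maspardin, was 326 and 351 against 619.7 and 568 (log2 fold change -0.81, standard error 0.11, adjusted p = 0.00423). A λ light chain probe set annotated to Iglv1 was 947 and 1064 in Aiolos-/- and 2007 and 1861 in wild type cells (log2 fold change -0.95, standard error 0.21, adjusted p = 0.0479), and another was 184 and 192 against 697 and 655 (-1.85, adjusted p = 7.1e-06). Iglv1 probe sets can share sequence with other λ genes. S100a10, a partner of annexin A2, was 955 and 1006 against 1376 and 1537 (log2 fold change -0.57, standard error 0.10, adjusted p = 0.0187). Leaving out single arrays ended calls without Aiolos-/- replicate 1 for Pim1, the other Pim1 probe set, H1f2, Hsph1, Spg21, Iglv1 and S100a10 (adjusted p = 0.0534 to 0.268), without Aiolos-/- replicate 2 for Pim1, the other Pim1 probe set, Iglv1 and S100a10 (adjusted p = 0.0617 to 0.121) and without wild type replicate 1 for Pim1, the other Pim1 probe set, H1f2, Hsph1, Spg21, Iglv1 and S100a10 (adjusted p = 0.0612 to 0.267). More calls ended without wild type replicate 2 for Pim1, the other Pim1 probe set, Hsph1, Iglv1 and S100a10 (adjusted p = 0.0574 to 0.127), without either Aiolos-/-/OBF-1-/- replicate for Iglv1 (adjusted p = 0.0593) and without either OBF-1-/- replicate for Hsph1 (adjusted p = 0.0637).

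Ikaros-family proteins bind DNA around the core TGGGAA. The windows below, from RefSeq (build GRCm38.p6), run from 250 bases before to 50 after the start of the gene and are shown for the 3 largest rises and the 3 largest falls with an entry, since the promoters of these genes are where such a core could be looked for. BC018473 is named only. Capitals mark TGGGAA or its reverse complement TTCCCA, the only motif searched. The windows are Ramp1 (chr1:91179572-91179871, plus strand), Ajuba (chr14:54577612-54577911, minus strand), Tspan31 (chr10:127070212-127070511, minus strand), Dhx40 (chr11:86807611-86807910, minus strand), Slfn8 (chr11:83020761-83021060, minus strand) and Klf4 (chr4:55532426-55532725, minus strand), each written 5′ to 3′ on its own strand.
Ramp1: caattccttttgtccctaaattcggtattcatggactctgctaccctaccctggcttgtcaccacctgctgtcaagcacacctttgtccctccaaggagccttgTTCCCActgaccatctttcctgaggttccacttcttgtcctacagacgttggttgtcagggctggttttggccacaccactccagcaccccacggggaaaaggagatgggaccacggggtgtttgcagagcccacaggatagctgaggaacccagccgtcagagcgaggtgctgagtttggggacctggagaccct
Ajuba: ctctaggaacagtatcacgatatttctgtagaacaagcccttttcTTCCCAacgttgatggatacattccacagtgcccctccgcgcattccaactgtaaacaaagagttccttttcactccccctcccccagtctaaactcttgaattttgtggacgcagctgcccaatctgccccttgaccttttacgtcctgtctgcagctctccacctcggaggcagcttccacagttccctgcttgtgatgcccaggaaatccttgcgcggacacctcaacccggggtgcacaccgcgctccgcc
Tspan31: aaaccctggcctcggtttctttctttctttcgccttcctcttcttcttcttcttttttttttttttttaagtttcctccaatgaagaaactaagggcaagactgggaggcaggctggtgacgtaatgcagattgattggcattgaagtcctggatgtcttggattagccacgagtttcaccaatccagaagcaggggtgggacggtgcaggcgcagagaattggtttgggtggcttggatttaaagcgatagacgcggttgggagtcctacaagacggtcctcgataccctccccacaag
Dhx40: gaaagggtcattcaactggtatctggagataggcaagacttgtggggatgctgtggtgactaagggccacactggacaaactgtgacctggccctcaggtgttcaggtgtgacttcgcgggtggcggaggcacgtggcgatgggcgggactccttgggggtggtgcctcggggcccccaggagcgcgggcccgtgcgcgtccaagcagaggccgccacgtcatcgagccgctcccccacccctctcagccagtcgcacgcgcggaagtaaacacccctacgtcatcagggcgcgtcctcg
Slfn8: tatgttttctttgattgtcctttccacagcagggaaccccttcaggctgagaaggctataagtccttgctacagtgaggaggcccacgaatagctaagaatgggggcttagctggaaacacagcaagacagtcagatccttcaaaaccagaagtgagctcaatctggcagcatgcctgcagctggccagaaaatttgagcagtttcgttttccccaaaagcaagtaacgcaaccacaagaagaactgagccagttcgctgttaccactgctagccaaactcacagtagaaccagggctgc
Klf4: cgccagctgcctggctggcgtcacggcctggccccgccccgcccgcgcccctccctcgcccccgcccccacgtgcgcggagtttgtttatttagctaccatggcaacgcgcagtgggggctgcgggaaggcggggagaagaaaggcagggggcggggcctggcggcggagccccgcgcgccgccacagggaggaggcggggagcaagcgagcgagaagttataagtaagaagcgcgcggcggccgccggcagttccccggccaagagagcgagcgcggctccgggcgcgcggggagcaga

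Of these windows, those of Ramp1 and Ajuba held 1 core each and the others none. Over all 27025 RefSeq windows 25.5% held the core, and so did 22.2% of the 5014 windows matched to the 6081 genes. It was in 21 of 59 matched windows of genes that rose (35.6%) and in 22 of 66 of genes that fell (33.3%). These shares describe letters in short windows and were not tested.

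The 4 arrays of OBF-1-deficient mice gave another reading of Aiolos loss that shares no array with the first, though it shares the washing stations and the pooled variance. Of the 79 genes that rose in Aiolos-/- cells, 73 (92.4%) were also above in Aiolos-/-/OBF-1-/- against OBF-1-/- cells, and of the 83 that fell, 74 (89.2%) were also below. The sign was the same for 64.9% of all 6081 genes. In that comparison 163 of the 6081 genes rose (2.68%) and 120 fell (1.97%), and 49 of the 79 rises (62.0%, and 30.1% of the 163) and 38 of the 83 falls (45.8%, and 31.7% of the 120) were called in both. With each comparison fitted to its own 4 arrays, 33 of 50 rises and 25 of 57 falls were called in both.

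Rises in membrane, cortex, signalling and other genes were called there too. Ramp1 was 1243 and 1243 in Aiolos-/-/OBF-1-/- and 215 and 263 in OBF-1-/- cells (log2 fold change 2.39, adjusted p = 4.58e-06). Ajuba was 240.3 and 250.4 against 39.1 and 40.7 (2.62, adjusted p = 0.000301), and here its replicates were close. Others called were Tspan31 (1.68), Sit1 (1.79), Ahnak (1.56), Lgr5 (1.67), Socs2 (1.65), Itih5 (1.49), Lmo2 (1.39), Pard6g (1.38), Fzd9 (1.36), Prep (1.28) and Tnfrsf19 (1.19), with adjusted p = 5.88e-06 to 0.000689. All of these 13 rises were larger than in Aiolos-/- against wild type cells, as were 42 of the 79 rises. For none of these 13 genes did the difference between the effects with and without OBF-1 pass its test, with adjusted p = 0.0743 or higher. That does not show that the effects were equal, and the study describes Ramp1 as synergistically raised in double mutant cells. Among the falls, Cd2 (-1.62, adjusted p = 2.26e-06), Cav2 (-1.32, 0.000227), Slfn8 (-1.04, 0.00466), H2-Oa (-0.63, 0.00559) and Iglv1 (-2.54, 4.48e-05) were called in both. The other Iglv1 probe set, which fell by 1.85 in Aiolos-/- against wild type cells, did not pass here (-0.34, adjusted p = 0.16). The call of Slfn8 ended without OBF-1-/- replicate 2 (adjusted p = 0.0629), and that of H2-Oa without it (adjusted p = 0.0574) or without Aiolos-/-/OBF-1-/- replicate 1 (adjusted p = 0.054).

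Other genes did not pass on those arrays. Prmt1 was 124 and 91.5 in Aiolos-/-/OBF-1-/- and 71.1 and 93.5 in OBF-1-/- cells (0.39, adjusted p = 0.504), and Meox1 was 90.1 and 82 against 68.2 and 78.7 (0.23, 0.424). H1f2 (0.14, 0.756), Hsph1 (0.20, 0.743), Rhob (0.01, 0.983) and Klf4 (-0.35, 0.516) were not lower either by the test, and the 12 heat shock chaperones had a median of 0.02 there. Slc1a5 went the other way: it was 1327 and 1532 in Aiolos-/-/OBF-1-/- and 653 and 577 in OBF-1-/- cells (1.22, adjusted p = 0.000227), with a difference between the 2 effects of 2.14 (adjusted p = 0.000517). Of the 9513 probe sets 21 (0.221%), and of the 6081 genes 13 (0.214%), passed the test of this difference, 6 of the genes being among the 162 called genes: Slc1a5, Tmprss3, Spg21, Slfn2, Gsn and Banp. For Slc1a5 and Tmprss3 it passed with any 1 of the 8 arrays left out. The Gsn rise was larger without OBF-1, where it was 1792 and 1532 in Aiolos-/-/OBF-1-/- and 516 and 527 in OBF-1-/- cells (difference 0.96, adjusted p = 0.0284), but this did not pass without 1 of 6 arrays (adjusted p = 0.092 to 0.142), namely Aiolos-/- replicate 2, Aiolos-/-/OBF-1-/- replicate 1 or any wild type or OBF-1-/- replicate. The difference also passed on all 3 secondary Gsn probe sets (1.27, 1.01 and 0.91, adjusted p = 0.0065, 0.00878 and 0.021). The first of these passed with any 1 of the 8 arrays left out, the second did not without wild type replicate 1 or OBF-1-/- replicate 1 (adjusted p = 0.0578 and 0.0635), and the third passed without wild type replicate 1 but failed when any 1 of the other 7 arrays was left out (adjusted p = 0.059 to 0.107). The other 5 of the 8 secondary probe sets that passed belonged to H1f2 (1.22, adjusted p = 0.0065), Iglv1 (1.505, 0.00421), Serpinf1 (-1.12, 0.0235), Tsc22d1 (1.03, 0.0151) and Vsir (-0.82, 0.0454). Those of H1f2 and Iglv1 passed with any 1 array left out. That of Vsir failed when any 1 of the 8 arrays was left out (adjusted p = 0.059 to 0.189) and that of Tsc22d1 without 5 of them (adjusted p = 0.0635 to 0.089), namely Aiolos-/- replicate 1, both wild type replicates, Aiolos-/-/OBF-1-/- replicate 2 and OBF-1-/- replicate 1.

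**Figure D3:**
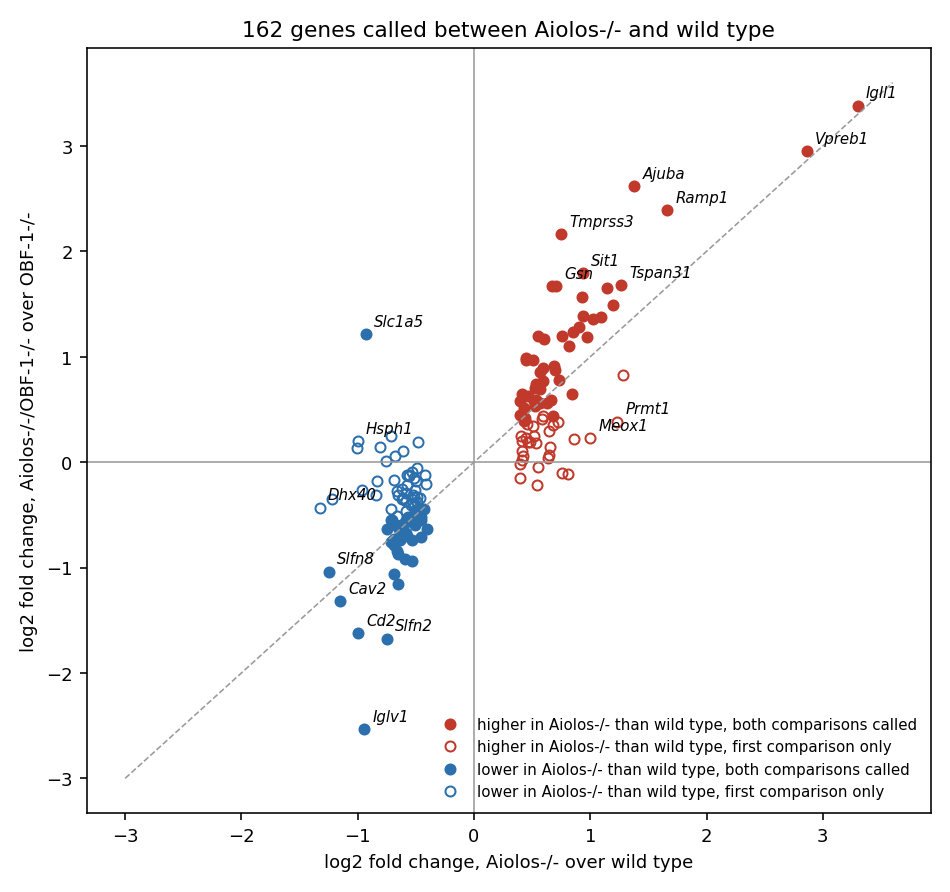
Log2 fold change of the 162 called genes in Aiolos-/- over wild type cells (horizontal) against that in Aiolos-/-/OBF-1-/- over OBF-1-/- cells (vertical), red for genes that rose and blue for genes that fell in Aiolos-/- cells, filled where the vertical comparison was also called, with a dashed line of equality. Most points lie in the lower left and upper right quadrants (74 of 83 falls and 73 of 79 rises), and Slc1a5 (-0.93 and 1.22) stands apart as a gene called in both with opposite signs.

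Many falls were seen only on a probe set that is not the brightest of its gene, called secondary here. Of the 183 lower probe sets, 65 belonged to 58 genes whose brightest probe set did not pass, with a median log2 fold change of -0.58 against -0.19 for the brightest, and 54 of the 65 had the same sign. Among the higher ones there were 11 such probe sets in 11 genes. Of the 52 other probe sets of genes called by their brightest one, 46 had its sign and 17 were also called. Probe sets whose names end in _x_at, in which probes can bind several transcripts, were lower in 4.58% and higher in 0.843%, against 1.34% and 1.26% of the plain ones. For Hspa8, a constitutive HSP70 chaperone, 3 secondary probe sets fell (log2 fold changes -1.18, -0.57 and -0.70, adjusted p = 0.0183, 0.0223 and 0.038) while the brightest had -0.40 (adjusted p = 0.193). For Smarce1, a subunit of SWI/SNF remodelling complexes, a secondary probe set was 252 and 271 in Aiolos-/- and 515 and 454 in wild type cells (-0.89, adjusted p = 0.00226), and the brightest had a log2 fold change of 0.30 (adjusted p = 0.111). Both genes were picked after their values were seen. The calls that ended with 1 array left out were, without Aiolos-/- replicate 1 for the Hspa8 probe set at -1.18, that at -0.57 and that at -0.70 (adjusted p = 0.109 to 0.245) and without wild type replicate 1 for the Hspa8 probe set at -1.18, that at -0.57 and that at -0.70 (adjusted p = 0.142 to 0.174). Others ended without wild type replicate 2 for that at -0.57 and that at -0.70 (adjusted p = 0.0676 to 0.143).

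The largest rise beside the surrogate light chain was on a secondary probe set. A Serpinf1 probe set, for a secreted serpin known as pigment epithelium-derived factor, was 277 and 213 in Aiolos-/- and 39.2 and 37.3 in wild type cells (log2 fold change 2.67, standard error 0.12, adjusted p = 2.63e-07). It stayed called with any 1 array left out, and it rose without OBF-1 as well (1.54, adjusted p = 2.7e-05), with a difference between the effects of -1.12 (adjusted p = 0.0235) that passed without Aiolos-/- replicate 2 but failed when any 1 of the other 7 arrays was left out (adjusted p = 0.0556 to 0.124). The brighter Serpinf1 probe set was 205 and 183 in Aiolos-/- and 125 and 123 in wild type cells (log2 fold change 0.65, standard error 0.10, adjusted p = 0.0119). In Aiolos-/-/OBF-1-/- against OBF-1-/- cells the brighter probe set did not pass (0.06, adjusted p = 0.829). An Ighm probe set far dimmer than the main one was 173 and 85.5 against 34.5 and 30.9 (1.90, adjusted p = 0.0191), although the brightest Ighm probe set did not pass (-0.22, adjusted p = 0.292). Trim25, a ubiquitin ligase of antiviral signalling, rose on 3 of 3 probe sets, and on the brightest it was 1817 and 1931 in Aiolos-/- and 1152 and 1123 in wild type cells (log2 fold change 0.72, standard error 0.10, adjusted p = 0.00617). Serpinf1 and Trim25 were picked after their values were seen. Single arrays decided some of these calls, which ended without Aiolos-/- replicate 1 for the brighter Serpinf1 probe set and the dim Ighm probe set (adjusted p = 0.117 to 0.144) and without wild type replicate 1 for the brighter Serpinf1 probe set, Trim25 and the dim Ighm probe set (adjusted p = 0.0549 to 0.128). They ended too without wild type replicate 2 for the brighter Serpinf1 probe set and the dim Ighm probe set (adjusted p = 0.061 to 0.0868).

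**Figure D4:**
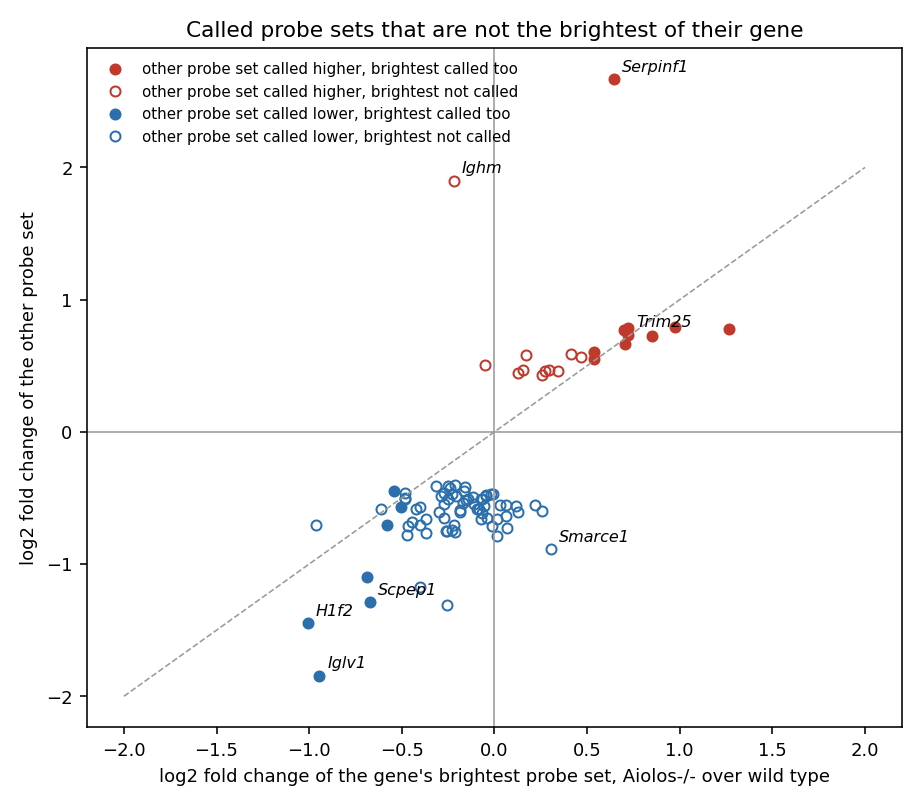
Log2 fold change in Aiolos-/- over wild type cells of each called probe set that is not the brightest of its gene (vertical) against that of the brightest (horizontal), red for higher and blue for lower, filled where the brightest was called too, with a dashed line of equality. The open blue points crowd at small changes of the brightest probe set (median -0.19), and Serpinf1 (0.65 and 2.67) and Smarce1 (0.30 and -0.89) lie far from the line.

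Genes of the pre-B cell programme mostly did not pass, as was so for most genes (2.66% of the 6081 were called). At that share, lists as short as these can hold no call. None of 7 V(D)J recombination genes was called (median log2 fold change -0.14), with Rag1 at 2588 and 2899 in Aiolos-/- and 3181 and 2901 in wild type cells (-0.15, adjusted p = 0.467) and Xrcc6 at -0.09. None of 25 B cell receptor signalling genes was called (median 0.00), the brightest being Cd79a (-0.16, adjusted p = 0.371) and Cd79b (-0.06, adjusted p = 0.741). The same held for the 3 Ikaros family and Oct factor genes that were bright enough (median -0.07), among them Pou2af1, which encodes OBF-1, at 2434 and 2842 in Aiolos-/- and 2761 and 2678 in wild type cells (-0.05, adjusted p = 0.906). It held for 10 growth arrest genes linked to Ikaros and Aiolos (median -0.08, with Btg1 at -0.13 and Btg2 at 0.26), 9 apoptosis regulators (median -0.14, Mcl1 -0.14, Bcl2l1 -0.05), 14 homing and adhesion genes (median 0.05, Cd47 0.04, Cxcr4 -0.02), 13 NF-kB pathway genes (median -0.08, Nfkbia -0.11, Ikbkb -0.13) and 12 immediate early genes (median -0.21, Jund -0.05). Among the immediate early genes, Jun, picked after its values were seen, was 236 and 461 in Aiolos-/- and 831 and 496 in wild type cells (-0.96, adjusted p = 0.127). A secondary Jun probe set fell (-0.70, adjusted p = 0.0479), but not without Aiolos-/- replicate 1 or wild type replicate 1 (adjusted p = 0.288 and 0.306). A p above the threshold does not show that these genes were equal.

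Some lists leaned one way with few calls. Of all 6081 genes, 3346 were below and 2735 above wild type, and 2.66% were called. The counts in the lists below were not tested against these shares. Of 24 cell cycle genes, 22 were below wild type with a median of -0.14, and 1 was called, the mitotic kinase Aurkb (read by a probe set that can bind several transcripts), at 89 and 88.4 in Aiolos-/- and 118 and 124 in wild type cells (-0.45, adjusted p = 0.0466). Of 9 progenitor and pre-BI markers, 7 were above wild type with a median of 0.26, and 1 was called, Spn. The Il7r gene of the interleukin-7 receptor was 2287 and 2031 in Aiolos-/- and 1773 and 1824 in wild type cells (0.26, adjusted p = 0.201). Of 10 interferon response genes, the antiviral enzyme Oas2 was the only one to rise, at 218 and 255 against 154 and 144 (0.66, adjusted p = 0.0159), with a list median of 0.06. Of 12 immature and mature B cell markers Klf2 fell (median -0.15), of 3 immunoglobulin chains Iglv1 fell (median -0.22), and of 10 B-lineage identity genes Ebf1 fell (median -0.06). Of 13 S100 proteins, annexins and partners, Ahnak rose and S100a10 fell (median 0.06). Of 18 tetraspanin and CD2-related surface genes, Tspan31 rose and Cd2 fell (median 0.12). Of 24 genes named by the study, a list picked on these samples and so no independent evidence, 5 rose (Igll1, Vpreb1, Ramp1, Gsn and Lgr5) and S100a10 fell. The other 18 had log2 fold changes of -0.46 (Myl4, adjusted p = 0.067) to 0.34 (Top3b, adjusted p = 0.102). When 1 array was left out, calls ended without Aiolos-/- replicate 1 for Aurkb (adjusted p = 0.215), without Aiolos-/- replicate 2 for Aurkb and Oas2 (adjusted p = 0.096 to 0.162) and without wild type replicate 1 for Aurkb and Oas2 (adjusted p = 0.106 to 0.19). Calls also ended without wild type replicate 2 for Aurkb and Oas2 (adjusted p = 0.0786 to 0.148) and without either OBF-1-/- replicate for Aurkb (adjusted p = 0.0634).

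**Figure D5:**
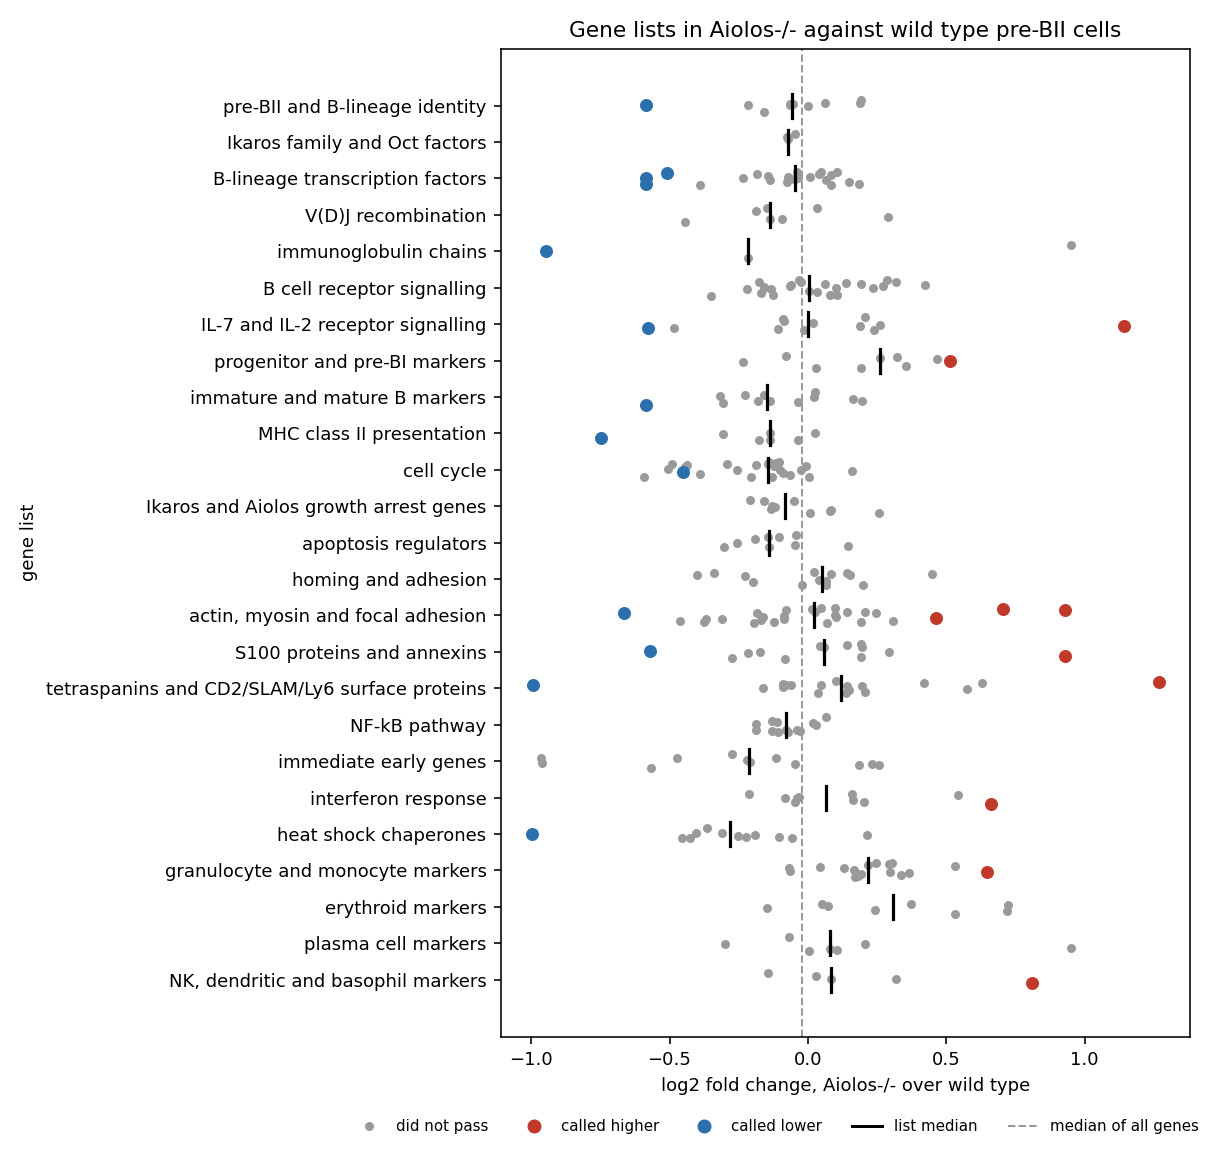
Log2 fold change in Aiolos-/- over wild type cells of the members of each gene list (1 point a gene), red where called higher, blue where called lower and grey where not called, with black bars for list medians and a dashed line at the median of all 6081 genes (-0.02). Lists with fewer than 3 members, the surrogate light chain among them, and the genes named by the study are not drawn. Of the lists drawn, the heat shock chaperones have the lowest median (-0.28) and the erythroid markers the highest (0.31), both with nearly all points grey.

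Several rises were in genes of myeloid cells, and most markers of myeloid and erythroid cells were above wild type. Of 17 granulocyte and monocyte markers 15 were above wild type, against 2735 of the 6081 genes, with a median of 0.22. Only 1 was called (5.88%, against 2.66% of the 6081 genes), the neutrophil protease Ctsg. It was at 335 and 329 in Aiolos-/- and 219 and 206 in wild type cells (0.65, adjusted p = 0.0129). Of 5 natural killer, dendritic and basophil markers the basophil protease Mcpt8 was called, at 182 and 118 against 80.0 and 87.7 (0.81, adjusted p = 0.0342). The coagulation factor genes F13a1 (0.60, adjusted p = 0.0286) and F5 (0.54, adjusted p = 0.0442) and the transferrin receptor gene Tfr2 (0.55, adjusted p = 0.0218), picked after their values were seen, rose as well. Of 8 erythroid markers 7 were above wild type, with a median of 0.31 and none called. Tfrc was at -0.15 and Car2 at 0.53, and the summed intensity of the 13 measured was 2323 and 2756 in Aiolos-/- and 2336 and 2210 in wild type cells. In Aiolos-/-/OBF-1-/- against OBF-1-/- cells the granulocyte and monocyte median was -0.02, the erythroid median was -0.20, Ctsg was at 0.30 and Mcpt8 at -0.12. F13a1 was called there as well, at 389.6 and 378 in Aiolos-/-/OBF-1-/- and 199 and 255 in OBF-1-/- cells (0.77, adjusted p = 0.00418), whereas F5 (-0.22, adjusted p = 0.418) and Tfr2 (-0.05, adjusted p = 0.869) did not pass. The part of these cells in the rises was not tested. Neither of the 2 T cell markers (Zap70 0.35, Cd3e 0.20) nor any of 7 plasma cell markers (Xbp1 -0.07, Irf4 0.10) that reached 100 was called, nor were the endothelial and platelet marker Pecam1 (0.08) and Xist (3379 and 4001 in Aiolos-/- and 2549 and 2773 in wild type cells, 0.47, adjusted p = 0.0557). Leaving out single arrays ended calls without Aiolos-/- replicate 1 for Ctsg, Mcpt8, F13a1, F5 and Tfr2 (adjusted p = 0.107 to 0.265), without Aiolos-/- replicate 2 for Ctsg, F13a1, F5 and Tfr2 (adjusted p = 0.0538 to 0.121) and without wild type replicate 1 for Ctsg, Mcpt8, F13a1, F5 and Tfr2 (adjusted p = 0.0892 to 0.233). More calls ended without wild type replicate 2 for Ctsg, Mcpt8, F13a1, F5 and Tfr2 (adjusted p = 0.0677 to 0.159) and without either OBF-1-/- replicate for F5 (adjusted p = 0.061).

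Chromosome 11, which carries Ikzf3, held several of the genes with large changes. Of its 562 measured genes 22 were called (3.91%, against 2.66% of all 6081), and chromosomes 14 and 16 had higher shares (4.06% and 4.57%). Of its 822 probe sets 37 were called (4.5%), and 6 changed at least 2-fold: those of Dhx40, Slfn8, Meox1, BC018473, Serpinf1 and a secondary one of Scpep1, a serine carboxypeptidase (-1.29, adjusted p = 0.0149), which was picked after its values were seen. By gene order, the 50 measured genes nearest to Ikzf3 on each side held 12 called probe sets of 153 (7.84%). The share was 3.74% on the rest of the chromosome (25 of 669) and 2.86% among the other members with 1 symbol. In the same order, the median absolute log2 fold change was 0.167, 0.115 and 0.124. Trim25 and Scpep1 are counted more than once among the 12. Of the 100 genes in this window, Scpep1, Trim25, Nme2, Plxdc1 and Meox1 were called by their brightest probe set, against 22 of 562 on the whole chromosome. The called genes nearest to Ikzf3 were Thra, Plxdc1, Lasp1 and Smarce1, each by 1 probe set, and for Thra, Lasp1 and Smarce1 a secondary one. In Aiolos-/-/OBF-1-/- against OBF-1-/- cells the shares of called probe sets were 5.88% and 3.29%, against 4.43% of the other members with 1 symbol. The window was picked with these results known and the difference between shares was not tested.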

How the data were processed

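RNA of pre-BII cells was hybridized to MOE430A arrays, 2 for each of 4 genotypes. The intensity values were deposited by the authors on a linear scale after RMA (background correction, quantile normalization between arrays, summary over the probes of a probe set), whose version is not given in the sources used here. The study's methods name other software for its own thresholds. Here a limma model (version 3.58.1, R 4.3.3) with 1 mean for each genotype was fitted to log2 of the intensities, and variances were moderated with 7.69 prior against 4 residual degrees of freedom. P-values were adjusted by Benjamini-Hochberg over all 22626 probe sets (64 controls left out), and a change was called at an adjusted p under 0.05. All p-values in the text are two-sided limma values adjusted in this way. The effect of Aiolos loss with OBF-1 was subtracted from that without OBF-1 as an interaction. The deposited settings file of each array holds no intensities and was read for the fluidics station, module, scan date and chip lot. Ranked by scan date, with any ties kept in sample order, wild type and OBF-1-/- arrays came 1 to 4. Aiolos-deficient arrays came 5 to 8, so this order ran with genotype as the station did.

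Gene symbols came from GEO's platform annotation through RefSeq gene identifiers (20380 probe sets with 1 symbol, 691 with several, 1555 with none; 20351 matched), giving 12393 genes. For each gene the probe set with the highest mean log2 over the 8 arrays was read, called the brightest. The members, gene lists and rule for named genes were chosen with earlier results of these data known. Named were the 15 largest rises and falls among called genes, called members of each list, the 2 brightest members of lists without a call, and genes the study names. Rises, falls and called list members also had to show no overlap between the 2 groups, which held for every called probe set. Exceptions are stated where they occur. No sample column was left unused (0).

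Same-numbered arrays of Aiolos-/- and wild type mice had uncorrelated deviations (r = 0.0122 over 9299 probe sets), and over the 6 pairs of genotypes r was -0.0745 to 0.205, above 0.1 in 3, so the numbers were not taken to pair arrays. Alternatives were renewed quantile normalization, median centring, a pseudocount of 16, a fit to only the compared genotypes, a replicate block, no moderation, moderation with trend and robustness, other intensity minimums, adjustment over the members alone, a 2-fold minimum and leaving out each array. On simulated data of this comparison (22626 probe sets), 62 of 100 changes of 0.5 and 100 of 100 of 1 (log2) were recovered, with 14 false calls. The simulated noise was normal, independent between probe sets and drawn with the moderated variances. It held no deviation shared across an array or station, so these counts do not give the recovery on the real arrays. The number of arrays limits the precision. Ikzf3 and other genes to which no probe set was matched were not analysed here. Scripts used Python 3.11.15 with pandas 2.3.3.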

Additional observations from a re-analysis of the deposited data

Results flagged for a closer look

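For 13 genes the effect of Aiolos loss differed with and without OBF-1 by the limma test of the difference itself, given here on the log2 scale as the effect without OBF-1 minus that with it. No explanation was weighed, and the wild type and OBF-1-/- arrays share 1 washing station and the others another.

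The difference was 2.14 for the glutamine transporter gene Slc1a5 (adjusted p = 0.000517), 1.42 for the serine protease gene Tmprss3 (adjusted p = 0.00421) and 1.64 for Irs1, a substrate of the insulin receptor (adjusted p = 0.00421). These 3 passed with any 1 of the 8 arrays left out. It was -0.95 for the collagen gene Col5a3 (adjusted p = 0.0151), 0.92 for the transcript AU020206 (adjusted p = 0.0151) and -0.95 for Ms4a1, which encodes CD20 (adjusted p = 0.0177). It was 0.79 for Tsc22d1, -0.89 for Nsg2, 0.95 for Spg21 and -0.93 for Slfn2 (adjusted p = 0.0259 each), 0.96 for Gsn (adjusted p = 0.0284), 0.96 for Banp (adjusted p = 0.0449) and 0.73 for the integrin gene Itgav (adjusted p = 0.0498). These 10 each failed the test without at least 1 array: at least without wild type replicate 1 in all 10 (adjusted p = 0.0683 to 0.215), without wild type replicate 2 in all 10 (adjusted p = 0.0787 to 0.15) and without OBF-1-/- replicate 1 in all 10 (adjusted p = 0.0733 to 0.137). Each of the other 5 arrays ended the call for some of them (adjusted p up to 0.19).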

How the results depend on the processing

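Against 107 higher and 183 lower probe sets in Aiolos-/- cells, 3 and 1 passed without moderation, 68 and 114 with only the compared genotypes, 162 and 308 with adjustment over the members alone and 16 and 16 at 2-fold or more. Without an intensity minimum 188 were higher, with a minimum of 200 57 were higher, and with a trend and robust fit 280 were lower. With single arrays left out, 26 to 113 were higher and 16 to 221 lower. In Aiolos-/-/OBF-1-/- against OBF-1-/- cells 280 were higher and 184 lower, and 17 and 8 passed without moderation, 53 and 15 at 2-fold or more, 119 lower with only the compared genotypes and 277 lower with adjustment over the members alone. With single arrays left out, 133 to 244 were higher and 62 to 174 lower. For the difference between the effects, against 21 probe sets, 0 passed without moderation (limma), 32 with a trend and robust fit, 42 without an intensity minimum, 9 at 2-fold or more and 6 to 23 with single arrays left out. At an unadjusted p under 0.05, 2146 of the 9513 probe sets passed, and 1718 without moderation. With a replicate block, 102 were higher and 215 lower in Aiolos-/- cells, and 310 and 204 in the other comparison; the arrays share only a number. Of the 46 called genes named by the rule, renewed quantile normalization ended the calls of Hsph1, Iglv1 and Klf2, median centring that of Tnni2 and the replicate block that of Klf2. The trend and robust fit ended those of Ajuba, BC018473, Prmt1, Klf4, Hsph1 and Iglv1, the pseudocount of 16 ended 14 and the fit to only the compared genotypes 13, among both Ajuba, BC018473, Prmt1, Klf4, Hsph1, Rhob, Id3, Klf2, Aurkb, Mcpt8 and Lgr5. Without moderation 43 ended. Genes that were not called could change sign: Btg2 had -0.0489 to 0.56 and Ikzf1 -0.22 to 0.0827 with single arrays left out, the sign turning without wild type replicate 2 for Btg2 and without wild type replicate 1 for Ikzf1 (0.26 and -0.07 with all arrays). The causes were not tested. The 2 arrays of each genotype and the intensity minimum limit which changes could be called.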
